A study of Homo sapiens with 16 samples.

Results

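The clustered histone genes are the protein-coding genes whose symbols begin with H2AC, H2BC, H3C or H4C, together with H1-1 to H1-6. By that rule 70 of 20037 protein-coding genes of the RefSeq annotation were members: 6 H1, 17 H2A, 19 H2B, 13 H3 and 15 H4 genes. CUT&RUN, in which a nuclease tethered to an antibody cuts out the chromatin it binds, was applied to LNCaP, a prostate carcinoma line. Genotype sgControl (here sgC) had a control guide and genotype sgPRKCI one for PRKCI, which encodes an atypical protein kinase C, and cells of both were kept for 72 h in DMSO or in 10 µM enzalutamide, an antiandrogen drug. H3K4me3, EZH2 and H3K27me3 each gave 1 library in each of these 4 conditions, so that no difference below carries a replicate spread or a test. The labels name a genotype only by its guide, so whether the cells were a clone or a pool is not given in the sources used here.

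Replication-dependent histone genes are small genes without introns, whose transcripts end in a stem-loop instead of a poly(A) tail and are made in S phase to package newly copied DNA. They lie in clusters, often as divergent pairs that share the short stretch of DNA between their starts, and are transcribed in a nuclear body organised by the coactivator NPAT. H2A, H2B, H3 and H4 proteins form the nucleosome core, and H1 binds the linker DNA. H3K4me3 marks the promoters of active or poised genes, and EZH2 is the catalytic subunit of Polycomb repressive complex 2, which deposits H3K27me3.

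The promoters of 8 members are given because they show both sides of the split described below. The first 5 had the highest median H3K4me3 of their class among members with a sequence, H4C15 through a peak of its neighbours H3C14 and H2AC18 inside its long annotated span, and the last 3 had no H3K4me3 peak in any library. Each runs from 250 bases before to 50 after the annotated start in RefSeq (GRCh38.p14), 5′ to 3′ on the strand of the gene. Capitals mark matches, on either strand, to 5 short motifs: TATAAA of the TATA box, CCAAT of the CCAAT box, TTTGCAT of the octamer element of H2B genes, AAACACA of the H1 box, and GGTCCG of the H4 promoter element.
H1-4, chr6:26156079-26156378, + strand: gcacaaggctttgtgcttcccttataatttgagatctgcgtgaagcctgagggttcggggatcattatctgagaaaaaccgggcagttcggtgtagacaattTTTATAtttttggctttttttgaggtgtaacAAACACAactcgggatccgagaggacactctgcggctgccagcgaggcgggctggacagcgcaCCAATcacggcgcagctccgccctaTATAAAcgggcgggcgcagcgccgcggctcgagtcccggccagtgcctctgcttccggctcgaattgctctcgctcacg
H2AC19, chr1:149850811-149851110, + strand: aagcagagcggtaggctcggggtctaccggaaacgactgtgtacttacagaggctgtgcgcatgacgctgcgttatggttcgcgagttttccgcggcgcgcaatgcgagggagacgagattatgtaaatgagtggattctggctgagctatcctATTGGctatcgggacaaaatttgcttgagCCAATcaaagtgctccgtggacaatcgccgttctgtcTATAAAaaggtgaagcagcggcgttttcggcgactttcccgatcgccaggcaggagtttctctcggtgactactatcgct
H2BC4, chr6:26123877-26124176, - strand: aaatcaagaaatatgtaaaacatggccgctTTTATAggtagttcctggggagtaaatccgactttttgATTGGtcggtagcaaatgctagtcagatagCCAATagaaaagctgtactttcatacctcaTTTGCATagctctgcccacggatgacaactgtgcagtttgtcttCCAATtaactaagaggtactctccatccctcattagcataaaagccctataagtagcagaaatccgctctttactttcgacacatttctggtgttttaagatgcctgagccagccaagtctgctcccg
H3C15, chr1:149852358-149852657, + strand: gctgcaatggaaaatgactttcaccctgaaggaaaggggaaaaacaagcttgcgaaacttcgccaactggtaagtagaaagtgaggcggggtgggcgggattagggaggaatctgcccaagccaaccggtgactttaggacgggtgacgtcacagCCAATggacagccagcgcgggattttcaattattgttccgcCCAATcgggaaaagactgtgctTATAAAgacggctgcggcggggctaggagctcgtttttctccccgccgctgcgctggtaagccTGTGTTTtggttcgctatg
H4C15, chr1:149861110-149861409, - strand: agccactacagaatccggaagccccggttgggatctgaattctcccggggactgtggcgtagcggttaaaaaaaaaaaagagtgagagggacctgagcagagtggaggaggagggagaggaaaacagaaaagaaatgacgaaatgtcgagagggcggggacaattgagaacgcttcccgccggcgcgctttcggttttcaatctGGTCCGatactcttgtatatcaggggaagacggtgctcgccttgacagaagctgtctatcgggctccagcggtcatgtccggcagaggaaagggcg
H1-1, chr6:26017738-26018037, - strand: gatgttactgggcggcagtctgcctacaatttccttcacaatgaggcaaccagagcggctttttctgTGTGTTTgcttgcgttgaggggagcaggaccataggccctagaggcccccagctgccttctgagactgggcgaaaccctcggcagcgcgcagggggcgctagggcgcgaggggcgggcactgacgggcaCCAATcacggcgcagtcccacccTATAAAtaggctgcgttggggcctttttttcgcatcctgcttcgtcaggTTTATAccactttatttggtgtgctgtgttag
H2BC3, chr6:26043664-26043963, - strand: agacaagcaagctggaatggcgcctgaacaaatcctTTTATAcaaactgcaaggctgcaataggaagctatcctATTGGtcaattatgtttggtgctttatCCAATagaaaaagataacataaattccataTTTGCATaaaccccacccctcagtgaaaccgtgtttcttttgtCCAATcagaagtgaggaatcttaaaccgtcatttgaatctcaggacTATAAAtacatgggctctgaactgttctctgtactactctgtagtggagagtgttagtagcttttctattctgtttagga
H4C4, chr6:26189063-26189362, - strand: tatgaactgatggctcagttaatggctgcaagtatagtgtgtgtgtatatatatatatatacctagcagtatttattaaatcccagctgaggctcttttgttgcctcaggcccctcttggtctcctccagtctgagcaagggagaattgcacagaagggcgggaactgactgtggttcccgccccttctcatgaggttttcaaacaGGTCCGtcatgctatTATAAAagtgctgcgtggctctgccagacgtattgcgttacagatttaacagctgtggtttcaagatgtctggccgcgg

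A peak was assigned to a gene if it came within 1 kb of either annotated end. Values from 4 libraries are given in the order sgC DMSO, sgPRKCI DMSO, sgC enzalutamide, sgPRKCI enzalutamide. The lists held between 18636 and 20589 peaks for H3K4me3 and between 80797 and 102903 for H3K27me3. The EZH2 lists held 11949, 6495, 15973 and 26019 peaks, and the last of these libraries stood apart: it had EZH2 at 95.8% of all genes with H3K4me3, against 22.5%, 7.60% and 8.26% in the other EZH2 libraries. Mean fragment coverage ranged from 0.842 to 1.56 for H3K4me3 and from 1.13 to 1.68 for EZH2. Of 9 genes that mark luminal prostate cells, among them FOXA1 and KRT8, 8 had H3K4me3 in all 4 libraries, as did 1 of 5 markers of other cell types (COL1A1).

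H3K4me3 divided the members into a large marked group and a smaller unmarked one, and the division was nearly the same in every condition. The mark was present at 52, 53, 53 and 53 of the 70 genes, beside 59.3%, 61.1%, 60.9% and 61.4% of all protein-coding genes. The 52 genes of sgC DMSO make 74.3% of the members, with an exact binomial 95% interval of 62.4% to 84.0% that covers counting error only. That interval takes members as independent, although these 52 lay at only 32 distinct H3K4me3 peaks, so it understates even this error. All 4 libraries marked 52 members and none marked 17. H3C12, an H3 gene, was the remaining member: its counted peak belonged to the neighbouring pair H2AC17 and H2BC17 and ended 997, 948 and 962 bp from it in 3 libraries and 1119 bp from it in sgC DMSO. It is a case of the 1 kb limit. Members without the mark in any library made 24.3% of the group, beside 37.1% of all genes.

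**Figure D1:**
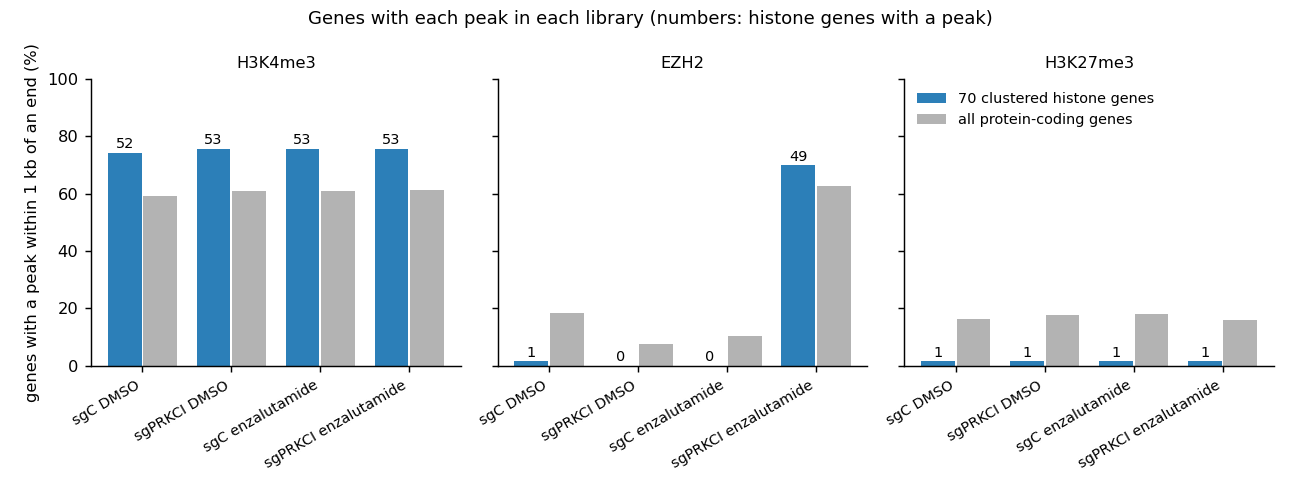
Share of genes (%) with a peak within 1 kb of an annotated end, for the 70 clustered histone genes and all 20037 protein-coding genes in each library; the numbers above the bars count histone genes. H3K4me3 is at 52 or 53 histone genes throughout, EZH2 at 1, 0, 0 and 49, and H3K27me3 at 1.

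The unmarked genes were not spread evenly over the clusters, which were defined as members no more than 200 kb apart. In the large cluster of chromosome 1 (chr1:149782689-149887965) all 11 members carried H3K4me3 in every library, and so did both members of the small one (chr1:228457364-228458558), H2AC25 and H2BC26. Of the 4 clusters on chromosome 6, the first (chr6:25726063-25727345) holds only H2AC1 and H2BC1, the testis H2A and H2B genes, and neither was marked. The second (chr6:26017032-26285534), with 32 members, had 19 marked and 13 unmarked. The third (chr6:27132316-27147562) had 4 of 5 marked, with H4C9 as the exception, and in the fourth (chr6:27807479-27893891) 15 of 16 were marked in every library, H3C12 being the other. H4C16, alone on chromosome 12, was marked in all 4 libraries, and H2BC12L, alone on chromosome 21, in none.

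Of the 13 unmarked genes in the second cluster of chromosome 6, 7 were consecutive. This run, H1-3, H4C6, H4C7, H3C7, H2BC9, H3C8 and H2BC10, spanned 39.2 kb without H3K4me3 at any of them. The other unmarked genes there were the H1 genes H1-1 and H1-6, the neighbours H2BC3 and H3C3, and the neighbours H2BC6 and H4C4. H1-1 and H1-6 lay 2394 and 2570 bp from the nearest H3K4me3 peak of any library, and H2BC9, deepest in the run, lay 26297 bp away. The peak nearest to H1-6 was that of the marked gene H4C3.

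**Figure D2:**
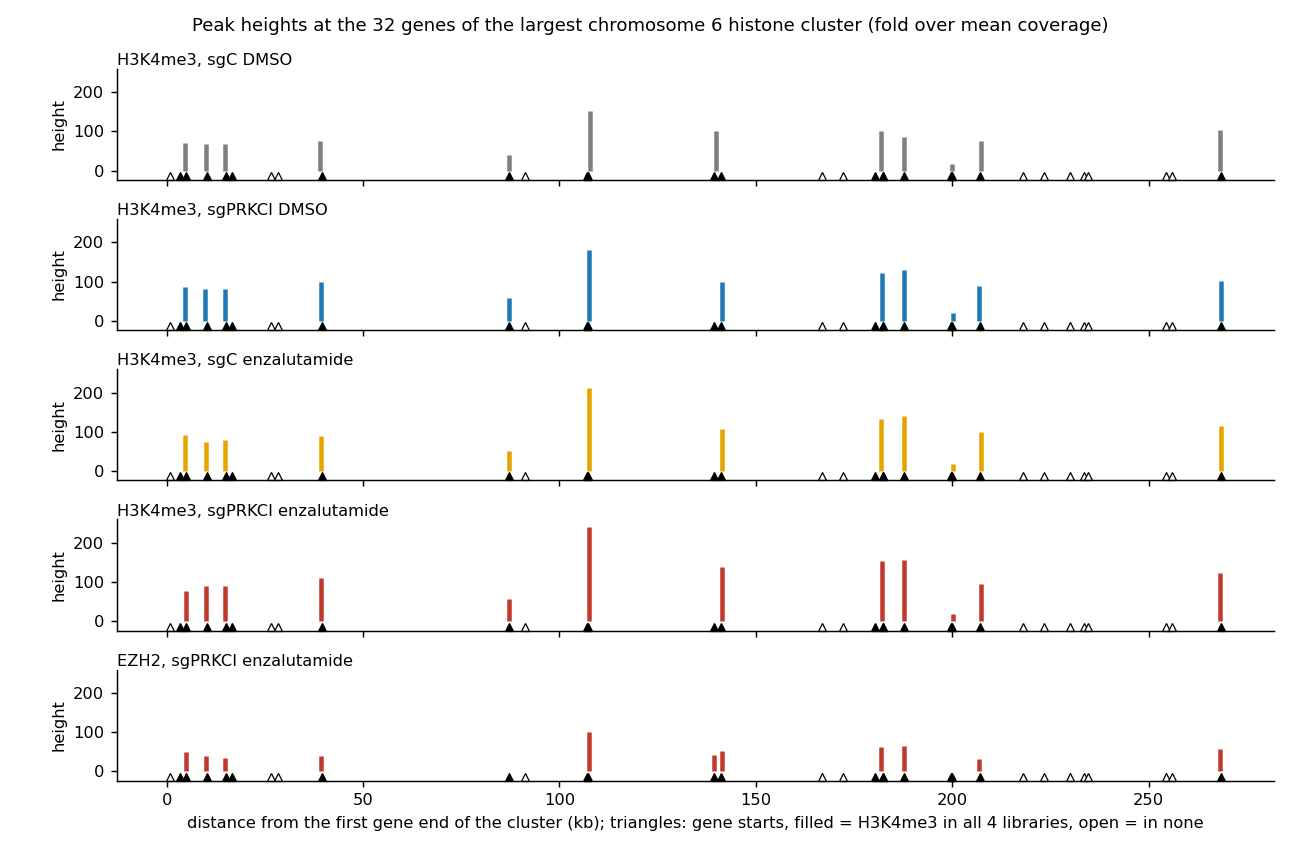
Peak heights (fold over the mean fragment coverage of the library, y axes) along the second chromosome 6 cluster, against the distance in kb from its first gene end, for H3K4me3 in 4 libraries and EZH2 in sgPRKCI enzalutamide. Triangles mark gene starts (the gene's middle where the table has no start); the 19 filled ones carried H3K4me3 in all 4 libraries and the 13 open ones in none, 7 of them in 1 run of 39.2 kb.

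By class, the share of unmarked genes was lowest for H2A and highest for H1, over few genes. H3K4me3 was absent from all 4 libraries at 1 of 17 H2A genes, 6 of 19 H2B genes, 3 of 13 H3 genes, 4 of 15 H4 genes and 3 of 6 H1 genes. Among the H1 genes, which encode the linker histones, H1-2, H1-4 and H1-5 were marked and H1-1, H1-3 and the testis gene H1-6 were not. The unmarked H2A gene was H2AC1, and the unmarked H2B genes were H2BC1, H2BC3, H2BC6, H2BC9, H2BC10 and H2BC12L. H3C3, H3C7 and H3C8 among the H3 genes, and H4C4, H4C6, H4C7 and H4C9 among the H4 genes, were the others.

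In each divergent pair both genes had the same state. RefSeq gives strands that place 13 pairs of members head to head with starts no more than 1 kb apart, 12 of them between 194 and 248 bp apart and H3C7 with H2BC9 at 979 bp. RefSeq lists several starts for some genes, and the pair H3C4 with H2BC7 rests on the start of H3C4 that lies at H2AC7, not on the start whose promoter is described below. In 11 pairs both partners were marked in all 4 libraries, H2BC7 being counted with both H3C4 and H2AC7, and in the pairs H2AC1 with H2BC1 and H3C7 with H2BC9 neither was marked in any. Partners at such distances usually fall under the same peak: the 52 or 53 marked members lay at only 30 to 32 distinct H3K4me3 peaks per library, 19 of which served at least 2 members and none more than 3. Members are for this reason not independent observations. The peaks at members were also wide, with medians of 3126, 3092, 3437 and 3382 bp beside 1959, 2003, 2119 and 2017 bp at all genes with a peak.

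Where H3K4me3 was present, its height varied over more than a 10-fold range among members. Height is the number of fragments stacked at the summit divided by the mean fragment coverage of the library, taken from the tallest peak within 1 kb. The median member stood at 99.8, 118, 126 and 139, and the median gene with a peak at 115, 119, 139 and 147. In these libraries 40.5%, 49.3%, 43.3% and 46.1% of genes with a peak were lower than the median member. The median member was below the median marked gene in every library, by the least in sgPRKCI DMSO. Members under a shared peak repeat its height here. Over the distinct peaks at members, each counted once, the median heights were lower, at 89.1, 99.8, 118 and 131.

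The tallest peaks lay in the large chromosome 1 cluster. H2AC19 and H3C15, an H2A and an H3 gene under 1 peak, reached 206, 273, 233 and 304.0, and their neighbours H3C14, H2AC18 and H4C15 reached 216, 244, 255 and 305. Several of these genes have copies: the 300 promoter bases of H2AC18 and H2AC19, of H3C14 and H3C15, and of H4C14 and H4C15 were identical, and those of H4C11 and H4C12 on chromosome 6 matched at 98.3%. How reads from such copies were placed is not given in the sources used here, so heights at these genes are uncertain. H4C15 is annotated over a long span, and at its start alone its heights were 145, 160.2, 171 and 189.7. Those at the start of H4C14 were 135, 182, 157 and 208, lower in the sgC libraries and higher in the sgPRKCI libraries, so H4C15 does not rank first by its own start in every library. The lowest by median, H2BC21, H2AC20 and H2AC21, shared a peak of 106, 118, 126 and 139, and H2BC18 and H3C13 were level with them at 116, 124, 122 and 122.

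On chromosome 6 the range was wider. In the second cluster the divergent pair H2BC4 and H2AC6 was highest at 151, 181, 212 and 241, and the divergent pair H2BC8 and H2AC8 was lowest at 16.6, 18.9, 17.3 and 19.4. The peak of this second pair was 416 to 637 bp wide in the 4 libraries. In the third cluster H2BC12 and H2AC12 (137, 138, 192, 192) stood above H2BC11 and H2AC11 (86.7, 86.3, 91.1, 115). In the fourth, H2AC15 and H2BC15 were highest at 133, 159, 194 and 234, and H3C11 and H4C13 lowest at 38.0, 59.2, 37.8 and 34.5. The marked H1 genes were of middling height: H1-2 measured 76.0, 99.4, 90.4 and 110.0, H1-4 measured 99.8, 97.8, 106 and 138, and H1-5 measured 70.1, 73.1, 68.6 and 72.6. In each of these clusters the values of the highest and the lowest pair did not overlap over the 4 libraries. The pairs were chosen by the median of these same values, so this separation follows in large part from the choice.

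**Figure D3:**
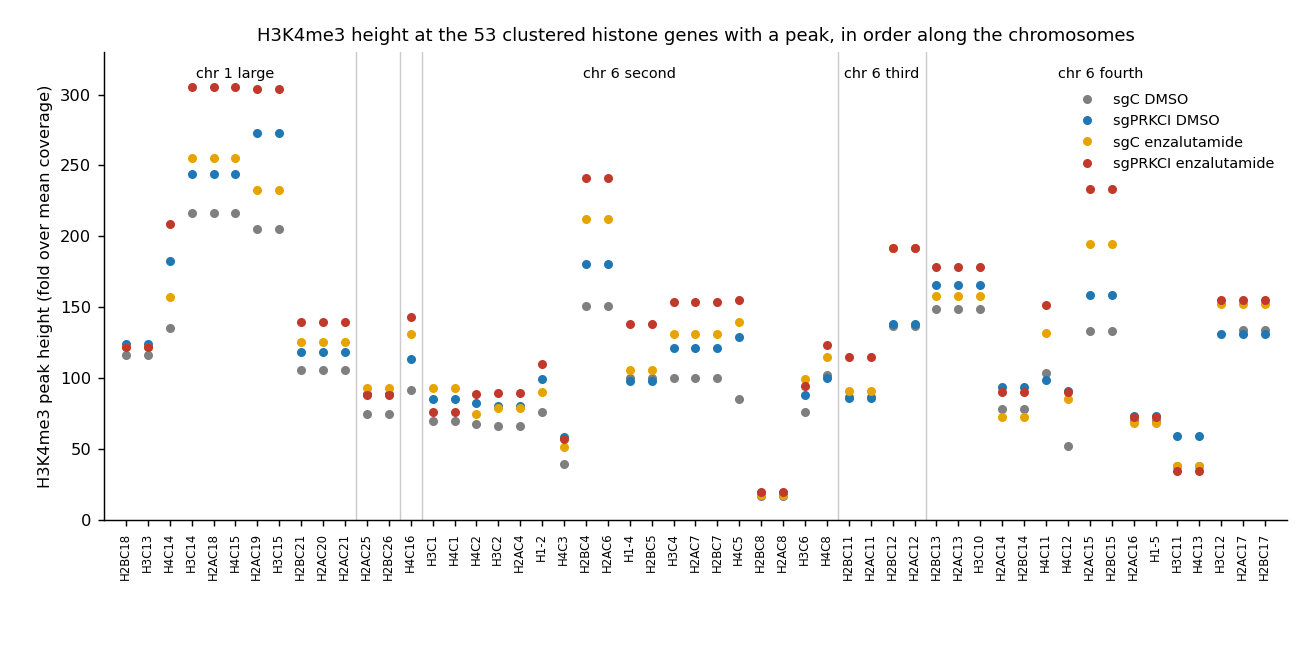
H3K4me3 height (fold over mean fragment coverage, y axis) at the 53 members with a peak, in chromosomal order (x axis), 1 point per library; grey lines separate clusters. Genes under a shared peak have the same value; H2AC19 and H3C15 lie between 206 and 304.0, and H2BC8 and H2AC8 between 16.6 and 19.4.

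No member gained or lost H3K4me3 in any of the 4 comparisons. A gain required a peak within 1 kb in the second library and none within 5 kb in the reference, and a loss the reverse. Over all genes gains were 1.77% for sgPRKCI against sgC in DMSO, 1.07% for the same comparison on enzalutamide, 1.54% for enzalutamide against DMSO in sgC and 0.828% in sgPRKCI. Losses were 0.255%, 0.524%, 0.27% and 0.524%. Such calls were rare among all genes too, so their absence here is near the background.

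Heights were somewhat higher with sgPRKCI than with sgC and on enzalutamide than in DMSO, as they were at all genes, and no spread between replicates is known. For sgPRKCI against sgC in DMSO the median log2 ratio of height was 0.23 at 52 members and 0.07 at all genes, and 40 members lay above the all-gene median. For the same comparison on enzalutamide it was 0.18 at 53 members and 0.09 at all genes, with 36 above. On the deposited fold enrichment of the same peaks, the members' medians fell below those of all genes by 0.17 and 0.21 in these comparisons, so that the direction relative to other genes depends on the scale. For enzalutamide against DMSO the members' median was 0.24 in sgC and 0.19 in sgPRKCI, and that of all genes 0.28 and 0.31. Relative to all genes, members were therefore at -0.04 and -0.12 on enzalutamide, and 19 of 52 and 18 of 53 lay above the all-gene median. With heights scaled to the 15153 peaks shared by all 4 libraries, these 2 medians of members were -0.065 and -0.094, so the sign of the enzalutamide ratio also depends on the scale.

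Single members stood farther out than these medians. H4C12, an H4 gene of the fourth chromosome 6 cluster, measured 52.3, 91.2, 85.3 and 90.6, so its log2 ratio was 0.80 for sgPRKCI against sgC in DMSO and 0.71 for enzalutamide against DMSO in sgC. It was low in sgC DMSO alone. H4C5, in the second cluster, showed the same pattern with 85.5, 129, 139.8 and 155. H3C11 and H4C13 were high in sgPRKCI DMSO alone, and their ratio for enzalutamide against DMSO in sgPRKCI, -0.78, was lower than that of all but 0.348% of genes. H3C1 and H4C1, neighbours at the start of the second cluster, measured 70.1, 85.5, 93.0 and 76.2, a log2 ratio of -0.29 for sgPRKCI against sgC on enzalutamide. These genes were chosen after their values were seen, each value rests on 1 library, and H4C11 and H4C12 are near copies.

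EZH2 was all but missing from the clusters in 3 libraries and present at most marked members in the fourth. It lay at 1, 0, 0 and 49 of the 70 members, beside 18.3%, 7.67%, 10.3% and 62.6% of all genes. Of the members with H3K4me3 in the same library, 1 of 52, 0 of 53, 0 of 53 and 49 of 53 had EZH2, and the last is 92.5%, beside 95.8% of all genes with H3K4me3. The rate in sgPRKCI enzalutamide was thus near that of all marked genes. In the other libraries it was below the 22.5%, 7.60% and 8.26% of all marked genes, with no replicate check and with neighbours sharing peaks.

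The single EZH2 peak outside sgPRKCI enzalutamide was at H1-2, a linker histone gene. In sgC DMSO it covered chr6:26056183-26056453 with a deposited fold enrichment of 5.54, a −log10 q of 6.91 and a height of 11.1. The gene had no EZH2 peak in sgPRKCI DMSO or sgC enzalutamide, and one of height 38.6 in sgPRKCI enzalutamide. H1-2 was the only member lost, both in sgPRKCI against sgC in DMSO, where 10.8% of all genes were lost, and in enzalutamide against DMSO in sgC, where 9.48% were. No member gained EZH2 in these comparisons (0.664% and 1.49% of all genes did), and none lost it in sgPRKCI against sgC on enzalutamide (1.28%) or in enzalutamide against DMSO in sgPRKCI (0.324%). With a −log10 q of at least 10 required, neither loss remained.

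In sgPRKCI enzalutamide the EZH2 peaks lay where H3K4me3 lay. All 49 members with EZH2 also had H3K4me3, and none of the 17 members without H3K4me3 had EZH2. These 49 counted as gained in sgPRKCI against sgC on enzalutamide and in enzalutamide against DMSO in sgPRKCI, comparisons that share the library of sgPRKCI enzalutamide, beside 53.2% and 54.6% of all genes. By class, 3 H1, 15 H2A, 12 H2B, 9 H3 and 10 H4 genes were among them. In the equal-length comparison, which kept the 6182 highest peaks of each EZH2 list by −log10 p, 12 of the 70 members had EZH2 in sgPRKCI enzalutamide, beside 33.0% of all genes, and 0 in each other library. Of these, 6 lay in the large chromosome 1 cluster. They were H4C14, H3C14, H2AC18, H4C15, H2AC19 and H3C15, which have copies with identical promoters. Their heights are uncertain for the reason given above, and some of them share a peak.

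EZH2 heights followed those of H3K4me3 in that library. They ran from 21.6 at H3C11 and H4C13 to 161 at H3C14, H2AC18 and H4C15, with a median of 62.1 beside 72.5 at all genes with an EZH2 peak. Between these lay H1-5 at 26.8, H1-2 at 38.6, H1-4 at 41.8, H2BC12 and H2AC12 at 85.6, and H2BC4 and H2AC6 at 99.97. The log2 ratio of EZH2 to H3K4me3 height had a median of -1.19 at members, with a range of -1.72 to -0.66, and of -0.98 at all genes. Over the 49 members, which rest on 30 distinct pairs of peaks, Pearson's r of the log2 heights was 0.95; the points are genes, not replicates, share both libraries and often share peaks. No EZH2 peak at a member in this library was free of overlap with H3K4me3 peaks, and the part that the standing apart of this library has in these counts was not tested.

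**Figure D4:**
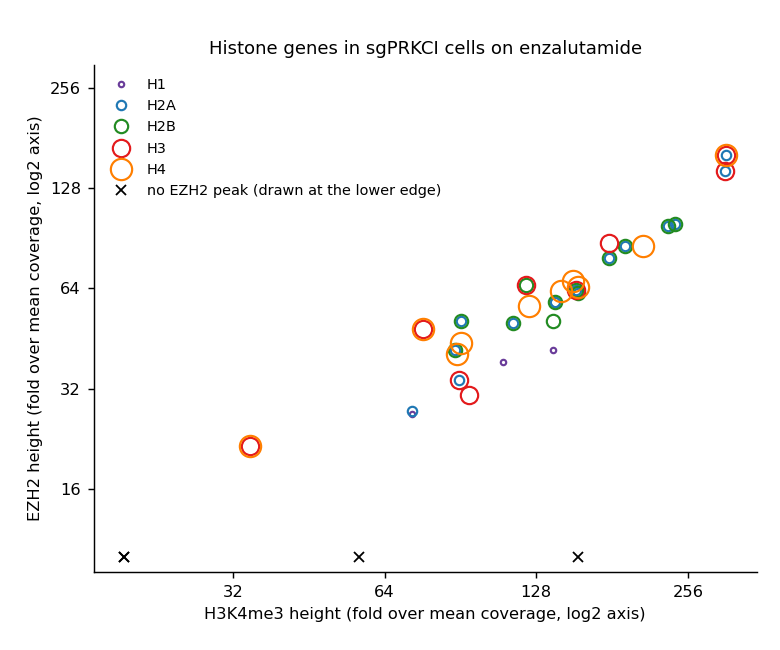
EZH2 height against H3K4me3 height (both fold over mean fragment coverage, log2 axes) at the 53 members with H3K4me3 in sgPRKCI enzalutamide; rings of rising size mark H1, H2A, H2B, H3 and H4 genes so that genes under a shared peak nest. The 49 genes with both peaks rise together from 21.6 to 161 in EZH2, and crosses mark the 4 without an EZH2 peak.

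The 4 marked members without EZH2 in sgPRKCI enzalutamide were H2BC8, H2AC8, H4C3 and H3C12. H2BC8 and H2AC8 had the lowest H3K4me3 of any marked member, 19.4, a range below 25 in which 54.8% of 807 genes had EZH2. H4C3, an H4 gene with an H3K4me3 height of 39.2, 58.3, 51.3 and 56.8, lay in the range of 50 to 75 in that library, in which 98.3% of 889 genes had EZH2. The EZH2 peak nearest to H4C3 was 16305 bp away. H3C12 has only the edge of a neighbour's H3K4me3 peak, as above, and its nearest EZH2 peak was 1285 bp away.

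H3K27me3 was nearly absent from the clusters, also where H3K4me3 was absent. It lay at 1 member in each library, beside 16.2%, 17.6%, 17.9% and 16.0% of all genes. That member was H2BC18, an H2B gene annotated over 29.7 kb, whose far end lies at H3K27me3 peaks with −log10 q of 4.58, 3.06, 2.89 and 1.44 and fold enrichments of 4.62, 3.69, 3.43 and 2.49. FCGR1A, a gene of an Fc gamma receptor inside that cluster, had H3K27me3 and no H3K4me3 in all 4 libraries, while the start of H2BC18 had within 1 kb H3K4me3 and no H3K27me3. No member gained or lost H3K27me3, beside gains of 1.57%, 0.524%, 1.37% and 0.474% and losses of 0.774%, 1.51%, 0.454% and 1.33% of all genes in the order of comparisons used above.

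None of the 17 members without H3K4me3 had H3K27me3 within 1 kb in any library, whereas 39.2% of the 7438 protein-coding genes without H3K4me3 did. The H3K27me3 peaks covered 0% of each chromosome 6 cluster in every library, and for the second cluster also 0% of the 100 kb on either side. The stretch without H3K27me3 around the second cluster ran for 675, 626, 649 and 626 kb. This stretch holds 13 of the 17 members without H3K4me3, so those 17 are not independent observations. The large chromosome 1 cluster was covered over 0.948%, 0.347%, 1.30% and 1.27% of its length, all at the far end of H2BC18. Members lay at a median of 164, 151, 163 and 150.2 kb from the nearest H3K27me3 peak, against 53.4, 36.2, 41.3 and 44.9 kb for all genes.

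The testis genes H2AC1 and H2BC1 lay near H3K27me3 in 3 libraries, outside the limit used for a call. H2BC1 lay 1545, 1919 and 1351 bp from an H3K27me3 peak in sgPRKCI DMSO, sgC enzalutamide and sgPRKCI enzalutamide, but 35564 bp in sgC DMSO. For H2AC1 the distances were 2328, 2702 and 2134 bp, against 34850 bp. With a limit of 5 kb, both would count in these 3 libraries and neither in sgC DMSO.

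Outside sgPRKCI enzalutamide, EZH2 was far from most members. The median distance from a member to the nearest EZH2 peak was 181, 1029, 1147 and 0 kb, against 104, 391, 243 and 0 kb for all genes. All 70 members lay over 50 kb from any EZH2 peak in sgPRKCI DMSO and in sgC enzalutamide, as did 82.4% and 75.7% of all genes. The large chromosome 1 cluster sat in stretches of 1338, 3652 and 3265 kb without an EZH2 peak in sgC DMSO, sgPRKCI DMSO and sgC enzalutamide. Members of a cluster share such a stretch, so these distances amount to few independent observations.

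A promoter sequence was matched for 64 of the 70 members; H4C1, H4C3, H2AC12, H3C11, H3C12 and H2BC12L had none. Their median GC content was 43.7%, beside 62.7% for 15843 protein-coding promoters and 65.7% for those with H3K4me3 in all 4 libraries. TATAAA was found in 67.2% of member promoters and 9.91% of all, and CCAAT in 84.4% and 36.0%. In 35 promoters a TATAAA match began between 33 and 28 bases before the start, as in the sequence of H3C15 above. Both strands were searched and the windows of divergent partners overlap, so a partner's motif can be counted for both.

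The other motifs followed the histone class. TTTGCAT was in 11 of 16 H2A and 14 of 18 H2B promoters and in no H1, H3 or H4 promoter, beside 3.71% of all promoters. AAACACA was in all 6 H1 promoters, beside 4.23% of all, in 1 H2A and in 2 H3 promoters, and in 5 H1 promoters a match began between 119 and 105 bases before the start. GGTCCG was in 12 of 13 H4 promoters, beside 14.2% of all, and in every one of these 12 it began between 47 and 44 bases before the start. CCAAT was in every H1, H2A, H2B and H3 promoter and in 3 of 13 H4 promoters.

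Each of the 5 motifs was also found at unmarked members, in shares that were compared without a test. TATAAA was in 34 of 48 marked (70.8%) and 9 of 16 unmarked promoters (56.3%), and among H3 genes in 8 of 8 and 1 of 3. CCAAT was in 40 of 48 marked and 14 of 16 unmarked promoters, and among H4 genes in 1 of 9 and 2 of 4. AAACACA was in 3 of 3 unmarked and 3 of 3 marked H1 promoters, and GGTCCG in 3 of 4 unmarked and 9 of 9 marked H4 promoters, H4C7 being the one without. In the unmarked H1-1 the AAACACA match began 183 bases before the start, not between 119 and 105 as in the other H1 promoters. TTTGCAT was in 5 of 5 unmarked and 9 of 13 marked H2B promoters. The H1-1 and H1-4 sequences above, from an unmarked and a marked gene, both hold CCAAT 54 bases before the start, and the unmarked H4C4 holds GGTCCG and TATAAA at the usual places. A match says only that these letters are in the window.

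CpG content differed more. Unmarked members had a median of 8 CpG dinucleotides in 300 bases (16 promoters, 3 to 17) and marked members 13 (48 promoters, 5 to 27), and the ratio of observed to expected CpG was 0.641 and 0.863 at equal median GC content of 43.7%. Among H4 genes the medians were 8 and 17, among H2B genes 6 and 12, among H1 genes 12 and 15, and among H3 genes 8 and 9. The single unmarked H2A promoter, of H2AC1, had 14, and the marked H2A promoters had a median of 13. The ranges of marked and unmarked promoters overlapped in every class. Across all genes the medians were 6 without H3K4me3 and 27 with it in all 4 libraries, so marked members had a lower CpG count than marked promoters in general. The median GC content of those sets was 54% and 65.7%, and their ratio of observed to expected CpG 0.319 and 0.848. By that ratio marked members (0.863) were near all marked promoters, and unmarked members (0.641) were above all unmarked ones. The split into marked and unmarked promoters uses H3K4me3 itself and has no test.

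**Figure D5:**
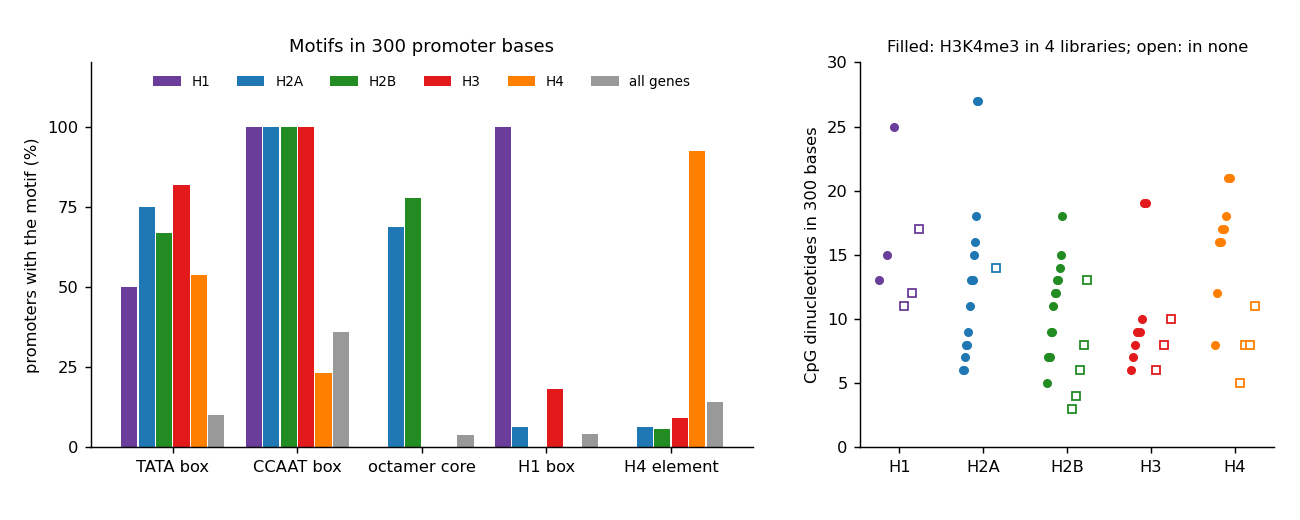
Left, share of promoters (%) holding each of 5 motifs in the 300 bases around the start, by histone class and for all genes; right, CpG dinucleotides per promoter by class, filled circles for members with H3K4me3 in all 4 libraries and open squares for members with it in none. AAACACA (H1 box) is in all 6 H1 promoters and GGTCCG (H4 element) in 12 of 13 H4 promoters; unmarked members have a median of 8 CpG and marked members 13.

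Of 15 factors of histone gene expression, among them NPAT, the H4 factor HINFP and the stem-loop binding protein SLBP, all 15 had H3K4me3 in every library, and EZH2 was at 2, 1, 1 and 15 of them. H3K4me3 lay at 59.3%, 61.1%, 60.9% and 61.4% of all protein-coding genes. Among all genes with H3K4me3, EZH2 lay at 22.5%, 7.60%, 8.26% and 95.8%, so the EZH2 counts of this list were near that background. GON4L had H3K27me3 in 3 libraries and EZH2 in sgPRKCI enzalutamide; SYMPK, a scaffold of the processing machinery, had EZH2 of height 8.93 in sgC enzalutamide and 68.0 in sgPRKCI enzalutamide, and H3K27me3 in sgPRKCI DMSO. CPSF3, the nuclease that cuts histone transcripts, had EZH2 heights of 14.8 in sgC DMSO and 99.97 in sgPRKCI enzalutamide. NPAT itself measured 129, 145, 135 and 142 in H3K4me3 and had EZH2 only in sgPRKCI enzalutamide, at 71.2.

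Of 12 replication-independent histone genes 11 were marked in all 4 libraries, H3-5 being the exception, and EZH2 was at 1, 0, 0 and 11 of them. H2AZ2, which encodes a variant of H2A, had EZH2 in sgC DMSO at 18.5 and in sgPRKCI enzalutamide at 114, with H3K4me3 at 195, 171, 189 and 190.5. CENPA, the centromeric H3 variant, measured 103, 96.1, 123 and 130.1 in H3K4me3 and had EZH2 in sgPRKCI enzalutamide alone, at 59.5. All 16 histone chaperones had H3K4me3 in every library and EZH2 at 2, 0, 0 and 16. The 2 in sgC DMSO were ASF1A and NAP1L4, at 9.61 and 15.5. The EZH2 counts of both lists stand beside 22.5%, 7.60%, 8.26% and 95.8% of all genes with H3K4me3. H3K4me3 itself was at 59.3% to 61.4% of all genes. The chaperone ANP32E was the one with H3K27me3, in sgPRKCI DMSO and sgPRKCI enzalutamide, where 17.6% and 16.0% of all genes had it.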

How the data were processed

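The design text of the series speaks of RNA-seq, whereas every sample label gives a CUT&RUN antibody; the labels were followed. They give 16 CUT&RUN samples of LNCaP, of which 12 peak lists were used; the 4 IgG libraries are not analysed here. The submitters' processing notes list FastQC, Trimmomatic, Bowtie2, SAMtools and MACS2, with no version, and the build GRCh38. The authors deposited narrow peaks for H3K4me3 and EZH2 and broad peaks for H3K27me3, with a score, a fold enrichment ratio, a −log10 p and a −log10 q per peak. Column 10 of the deposited narrow lists gives the summit offset. The lowest −log10 q was 4.00 to 4.05 in narrow and 1.00 to 1.02 in broad lists, so a gene without a peak had none above that threshold. Peak calls depend on depth, and read totals are not used here. A K-metstat internal control was added per the labels' protocols; it is not used here.

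Only peaks of the assembled chromosomes other than the mitochondrial one were kept; 1 row with a malformed contig was dropped. Genes and promoters came from RefSeq (GRCh38.p14); of several promoters of a gene, the one with the lowest coordinate was used. For narrow peaks, the pileup at the summit and the mean coverage were recovered from the deposited fold and −log10 p. At least 99.96% of a list's peaks gave whole fragments within 0.002 in −log10 p, for EZH2 in sgPRKCI enzalutamide once its pileup was scaled by 0.890. The depth of the H3K27me3 lists is unknown. The recovery and the calls of gains and losses were tested on simulated data. Python 3.11.15, numpy 2.4.6, pandas 2.3.3 and scipy 1.17.1 were used.

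With 1 library per antibody and condition no test was made. Members, lists and motifs were chosen with earlier results of these data known. Named were all H1 genes, the testis genes, members gained, lost or unmarked, each cluster's highest and lowest H3K4me3, members with EZH2 or H3K27me3 in sgC DMSO, and up to 3 members per list with the most EZH2 or H3K27me3 peaks; others named were chosen after their values were seen, and 1 gene that the rule names is not reported here. Alternatives covered the distance, the gene end, stricter and equal numbers of peaks, summits, duplicated members, EZH2 away from H3K4me3, the free window and the height scale. No protein sequence was used here.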

Additional observations from a re-analysis of the deposited data

Results flagged for a closer look

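EZH2 at H1-2 went opposite ways in the 2 genotypes and under the 2 treatments. On enzalutamide its EZH2 peak was lost in sgC and, with a height of 38.6, gained in sgPRKCI; with the PRKCI guide it was lost in DMSO and gained on enzalutamide. The difference was not tested, since each condition has 1 library. The EZH2 library of sgPRKCI enzalutamide had a peak at 62.6% of all genes, and the height of the peak in sgC DMSO was 11.1.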

How the results depend on the processing

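Of 204 alternative values, 165 stayed within set limits of the main ones, 35 moved and 4 reversed. All were planned. Counts and covers had to stay within a fixed fold of the main value, and 0 against 0 counted as staying. For height ratios the limit was the standard deviation over members, 0.16 to 0.27, which is about as large as the members' medians. Members with H3K4me3 numbered between 43 (summit within 1 kb) and 57 (within 5 kb) in every library and alternative. Both of these counts occurred in sgPRKCI DMSO, where they stand beside 56.8% and 65.9% of all genes. With the summit rule the members were thus nearer to the share of all genes than in the main setting. Members with EZH2 in sgC DMSO fell to 0 under stricter peaks, equal numbers of peaks, and EZH2 peaks away from H3K4me3 peaks. The shares of all genes in these settings were 9.51%, 11.6% and 3.96%. In sgPRKCI enzalutamide members with EZH2 were 12 with equal numbers and 0 away from H3K4me3, beside 33.0% and 4.10% of all genes. Members with H3K27me3 were 0 in all 4 libraries with the start alone, beside 10.4% to 11.7% of all genes. They were also 0 when at least 0.5 of the gene had to be covered, beside 4.73% to 6.09%. Within 0.5 kb they were 0 in sgPRKCI DMSO, beside 15.7%, and under stricter peaks 0 in sgPRKCI enzalutamide, beside 13.5%. In sgPRKCI DMSO, sgC enzalutamide and sgPRKCI enzalutamide they were 2 within 2 kb, beside 20.4%, 20.6% and 18.7% of all genes. Within 5 kb they were 3 in these libraries, beside 25.8%, 25.4% and 24.0%. In sgPRKCI against sgC in DMSO and in enzalutamide against DMSO in sgC, H3K4me3 gains were 1 with a free window of 1 kb and 2 under stricter peaks (H2BC8 and H2AC8), and EZH2 losses were 0 under both equal numbers and stricter peaks. EZH2 gains in sgPRKCI enzalutamide were 12 with equal numbers in both comparisons. The shares of all genes gained or lost under these alternatives were not computed. These counts of gains and losses therefore have no background beside them and are not read as results about the members. H2BC8 and H2AC8 lie at a shared low peak, so their gains are not separate events.

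On the deposited fold enrichment, the median H3K4me3 ratio of members minus that of all genes was -0.17 for sgPRKCI against sgC in DMSO and -0.21 on enzalutamide, where the members' own median was 0.0076. Scaled to shared peaks, the members' median for enzalutamide against DMSO was -0.065 in sgC and -0.094 in sgPRKCI. H3K27me3 covered 0%, 0.173%, 0.142% and 0.415% of the 10 kb around members in the order of libraries used above, against 0.208%, 0.0762%, 0.286% and 0.279% of the cluster spans. The cause of these shifts was not tested. No paired analysis was possible because each antibody and condition has 1 library, and for the same reason no replicate could be left out. Duplicated members were found by promoter, since protein sequences were not used here. Depth limits what a missing peak means: EZH2 lists differ in length, and the depth of the H3K27me3 lists is unknown.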

Other observations

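The highest H3K4me3 summit lay downstream of the start at 31, 32, 33 and 33 of the 48 marked members with a placed start, in the order used above, and upstream at the others. Over all 48 the median position was 171, 171, 228 and 184 bp after the start, with a wide spread: in sgC DMSO the quartiles were at -455.5 and 354.5 bp. The tallest peak within 1 kb of either gene end was used, so a summit can belong to a neighbour, as for H4C15. Genes under a shared peak share its summit, so the 48 positions are not independent observations. H4C13 has H3K4me3 within 1 kb of its start in the enzalutamide libraries alone, at 37.8 and 34.5, although it counts as marked in all 4 libraries by its other end.

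H3K4me3 covered 27.6% to 29.2% of the large chromosome 1 cluster, 12.2% to 14.2% of the second chromosome 6 cluster, 34.0% to 35.0% of the third and 21.5% to 24.2% of the fourth. In the 100 kb flanks of these clusters the cover was between 2.86% and 9.61%.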
